A study of Mus musculus with 18 samples.

Results

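The hotspots described here lie within 5 Mb of the distal end of a mouse autosome, the end away from the centromere. The end of each autosome was taken as the largest hotspot position in any of 9 DMC1 maps, and chromosomes 17 and 19 were left out. This gave 5673 hotspot calls of 165207 autosomal calls in the 9 maps, and 2998 of the 88578 autosomal bins in 5 H3K4me3 tables. Calls of different maps within 1 kb of each other form 2723 separate distal sites. The 17 ends lay between 100378 bp (chromosome 11) and 544555 bp (chromosome 18) short of the mm10 chromosome length, so the members are subtelomeric and no telomere repeat is among them. Elsewhere means the remaining 2164.4 Mb of the same 17 chromosomes, with 148176 calls, against 85 Mb of distal sequence.

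In meiosis each chromosome pair is cut by programmed double-strand breaks, and PRDM9 chooses where. Its zinc fingers bind a DNA motif and its methyltransferase domain places H3K4me3 on the nucleosomes beside it. DMC1 then coats the single-stranded DNA of the break and searches for the homologous chromosome. A hotspot is symmetric when breaks form on both homologues, and one-sided when they form mostly on one of them. Subtelomeric regions are known for frequent crossing over in male mammals, which is a separate readout from the breaks mapped here.

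The ChIP samples were whole adult testis, and males of the 8 DMC1 samples were about 10 weeks old. Genomic DNA of PWD spleen was also sequenced and is not used here. The infertile F1 had a PWD mother, a B6 father and the PWD and B6 alleles of Prdm9. The reciprocal F1 came from the opposite cross (B6xPWD) with the same alleles. The rescue F1 (PWDxB6), a littermate of the infertile males, carried PWD and the humanized allele (Hum). The Hum/PWD F1 was its opposite cross (B6xPWD), and the CAST F1 (B6xCAST) carried B6 and CAST alleles. B6/Hum and Hum/Hum males were C57BL/6J, and PWD/PWD males were PWD/PhJ. A B6/B6 map, made from DMC1 data that others had submitted, is described beside the 8 others. It is outside the tests over maps, but its heat enters the test of heat per H3K4me3. Each DMC1 map is 1 library. The infertile, reciprocal and rescue H3K4me3 tables hold 2 biological replicates and 1 input each, while the B6/B6 and Hum/Hum tables hold pseudoreplicates of 1 library. Over all autosomal bins the F1 replicates held 979748 to 5302534 fragments. In whole testis, fewer cells with breaks and fewer breaks per cell cannot be told apart, and heat, which is the DMC1 signal the authors deposited for each hotspot, is relative within a map.

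The reference sequence (RefSeq GRCm38.p6, which is mm10, plus strand) is given at the hottest distal hotspots. PWD and CAST chromosomes can differ from it, and their own sequence was not used. Each line below is 200 bases around the deposited position. The first is the hottest distal Hum/Hum site (chr4:155193334-155193533, heat 444.3) in an intron of Ski, a repressor of TGF-beta signalling. The next is the hottest B6/B6 site (chr4:151969745-151969944, heat 352.9), at an exon of the mitochondrial chaperone gene Dnajc11. They are followed by the PWD/PWD site (chr15:100348836-100349035, heat 307.7), 4213 bp from Methig1, and the CAST F1 site (chr13:116088735-116088934, heat 453.7), 209446 bp from Isl1, a LIM homeodomain gene.

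Hum/Hum hottest: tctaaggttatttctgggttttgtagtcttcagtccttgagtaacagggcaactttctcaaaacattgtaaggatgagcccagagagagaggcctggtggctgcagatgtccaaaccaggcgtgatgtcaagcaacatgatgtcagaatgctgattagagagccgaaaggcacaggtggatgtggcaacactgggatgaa

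B6/B6 hottest: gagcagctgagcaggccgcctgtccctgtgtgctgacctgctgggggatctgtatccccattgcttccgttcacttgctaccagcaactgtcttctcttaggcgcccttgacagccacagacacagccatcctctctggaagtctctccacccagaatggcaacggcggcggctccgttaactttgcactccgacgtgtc

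PWD/PWD hottest: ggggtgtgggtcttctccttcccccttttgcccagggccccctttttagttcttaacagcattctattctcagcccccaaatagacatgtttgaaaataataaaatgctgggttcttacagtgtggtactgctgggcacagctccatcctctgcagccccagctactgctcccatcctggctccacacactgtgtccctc

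CAST F1 hottest: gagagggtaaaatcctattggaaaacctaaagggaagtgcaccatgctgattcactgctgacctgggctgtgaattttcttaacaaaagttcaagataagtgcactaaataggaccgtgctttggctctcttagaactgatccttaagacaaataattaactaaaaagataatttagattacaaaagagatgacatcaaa

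None of these 4 windows held the motifs searched. Those were the degenerate 13-base motif of human PRDM9 hotspots and, for each homozygous map, 8 letters over-represented in the central 200 bases of its 2000 hottest hotspots outside the distal regions and over 1 kb from a transcript start. They had the highest score, the excess of hotspots with the letters over the mean of both flanks divided by the square root of that mean plus 5; by the ratio or the difference of shares other letters could rank first. These letters were CCCCCCAC for Hum/Hum, GCAGCACC for B6/B6 and CAAGTCAC for PWD/PWD, each read on both strands. CCCCCCAC and the 13-base motif are both rich in C and can overlap. The next 4 windows are the hottest distal hotspots of a map that hold its motif, and were chosen after their values were seen. Capitals mark the motif.

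Hum/Hum, 13-base motif: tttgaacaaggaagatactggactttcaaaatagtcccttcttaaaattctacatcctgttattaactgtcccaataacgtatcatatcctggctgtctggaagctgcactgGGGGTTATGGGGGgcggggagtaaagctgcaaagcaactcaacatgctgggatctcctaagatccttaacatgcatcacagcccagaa

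Hum/Hum, 8 letters: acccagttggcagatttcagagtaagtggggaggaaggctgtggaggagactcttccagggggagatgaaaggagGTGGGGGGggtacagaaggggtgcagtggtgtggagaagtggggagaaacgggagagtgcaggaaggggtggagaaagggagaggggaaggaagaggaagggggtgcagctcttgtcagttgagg

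B6/B6, 8 letters: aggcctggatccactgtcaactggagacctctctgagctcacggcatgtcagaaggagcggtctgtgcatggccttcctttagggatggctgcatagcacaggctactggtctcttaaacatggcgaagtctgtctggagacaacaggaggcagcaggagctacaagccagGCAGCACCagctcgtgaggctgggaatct

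PWD/PWD, 8 letters: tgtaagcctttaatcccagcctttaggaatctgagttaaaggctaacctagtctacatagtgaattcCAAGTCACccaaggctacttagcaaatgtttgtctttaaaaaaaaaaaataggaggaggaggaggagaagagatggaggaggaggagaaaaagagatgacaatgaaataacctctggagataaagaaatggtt

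Both Hum/Hum windows carry the complement strand of their motif, in introns of Ski (chr4:155170876-155171075, heat 420.4) and of the protein kinase gene Prkcz (chr4:155359424-155359623, heat 384). The B6/B6 window lay in an intron of the cadherin gene Cdh4 (chr2:179799343-179799542, heat 176.5), and the PWD/PWD window in an intron of Ski (chr4:155189014-155189213, heat 132.6). In 300 bp windows the 13-base motif was present at 14.0% of 607 distal Hum/Hum hotspots (Wilson 95% interval 11.5 to 16.99%) and at 13.9% of 13883 Hum/Hum hotspots elsewhere. Of all distal 300 bp windows 2.88% held it, against 2.57% elsewhere. CCCCCCAC was found at 9.06% of distal Hum/Hum hotspots (7.03 to 11.6%) and 8.04% elsewhere, with 2.05% of all distal windows and 1.72% of windows elsewhere. GCAGCACC was found at 7.12% of the 660 distal B6/B6 hotspots (5.40 to 9.34%) and 6.15% elsewhere, with 1.24% of all distal windows and 0.910% of those elsewhere. CAAGTCAC was found at 2.54% of the 709 distal PWD/PWD hotspots (1.61 to 3.98%) and 3.49% elsewhere, with 0.998% of all distal windows and 0.943% of those elsewhere. The share of hotspots with the map's own motif at chromosome ends was thus within counting error of the share elsewhere for the Hum and B6 alleles, and the PWD intervals of 1.61 to 3.98% and 3.24 to 3.76% overlapped too. At the ends CAAGTCAC did not set PWD/PWD hotspots apart from those of B6/B6 (2.42%, 1.50 to 3.90%) or the CAST F1 (2.54%, 1.61 to 3.97%). Elsewhere these 2 maps had 0.985% and 2.64%. Distal Hum/Hum hotspots had 0.329%.

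Whether chromosome ends are cut as much as the rest of the chromosome came next. They carried less DMC1 signal in every map. Distal heat per Mb was 375 in the infertile F1 map against 621 elsewhere, 438 against 616 in the reciprocal F1, 346 against 608 in the rescue F1 and 453 against 616 in the Hum/PWD F1. It was 544 against 621 in the CAST F1 map, 462 against 597 in B6/Hum, 527 against 594 in Hum/Hum and 374 against 583 in PWD/PWD. The B6/B6 map had 483 against 595. The ratio was lowest in the rescue F1 (0.568) and highest in Hum/Hum (0.887), and distal values of the 9 maps (346 to 544) lay below all values elsewhere (583 to 621). Over the 8 maps the mean log2 ratio was -0.48 ± 0.24 (SD, n = 8), a geometric mean ratio of 0.716, lower in 8 of 8 maps (exact sign-flip permutation test over maps, two-sided, p = 0.00781, the smallest possible; Benjamini-Hochberg adjusted over 8 tests, p = 0.0208). The maps share the same 17 ends, so this test speaks for the spread between libraries and not between regions.

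**Figure D1:**
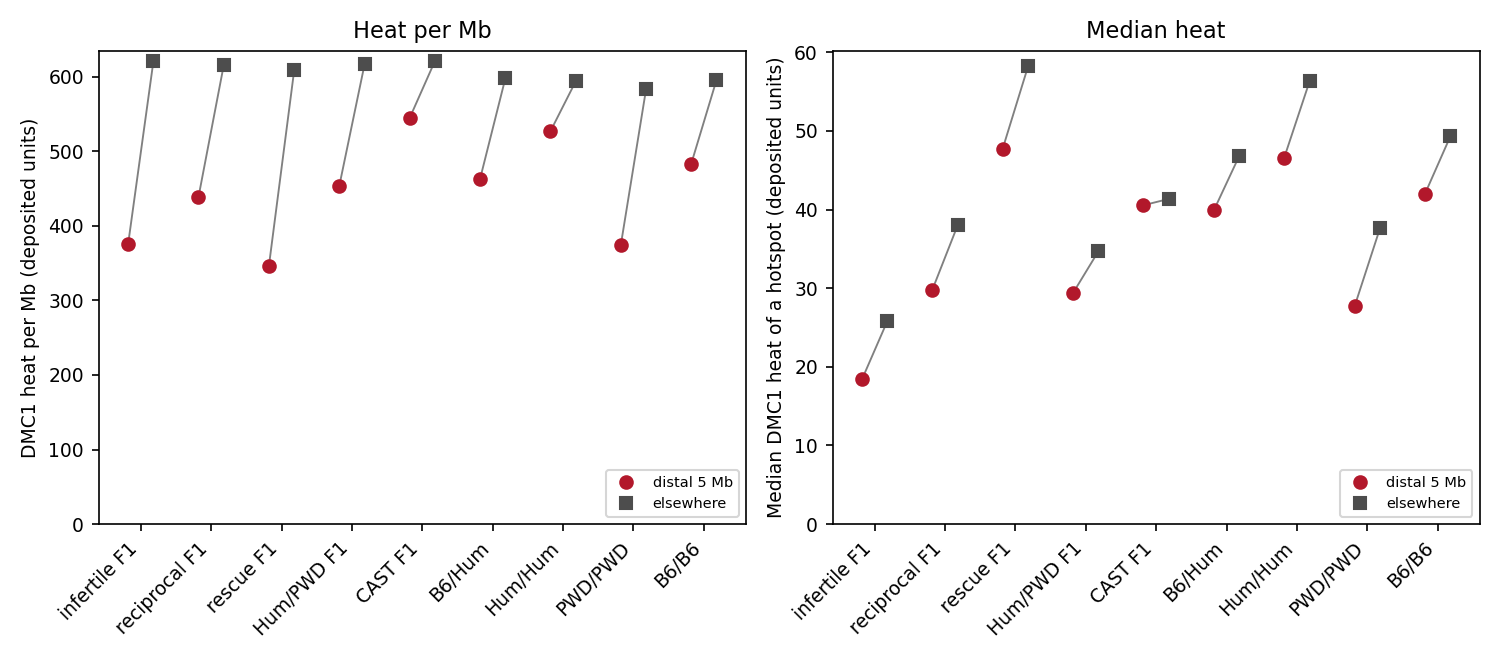
DMC1 heat per Mb (left) and median heat of a hotspot (right), in deposited units, in the distal 5 Mb (circles) and elsewhere on the 17 autosomes (squares) for each of the 9 maps, 1 library each. The distal value is the lower one in every map, with the smallest gap in median heat in the CAST F1 map (40.6 against 41.4).

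Distal hotspots were weaker in every map, while their number per Mb did not differ in a single direction. Median distal heat was 18.4 in the infertile F1 map against 25.8 elsewhere, 29.8 against 38.0 in the reciprocal F1, and 47.8 against 58.2 in the rescue F1. In the Hum/PWD F1 it was 29.4 against 34.7, in B6/Hum 39.9 against 46.8, in Hum/Hum 46.6 against 56.3, in PWD/PWD 27.7 against 37.6 and in B6/B6 42.0 against 49.3. The mean log2 ratio was -0.29 ± 0.14 (SD, n = 8), lower in 8 of 8 maps (exact sign-flip permutation test, p = 0.00781; adjusted p = 0.0208). Hotspot density was 8.59 distal hotspots per Mb against 9.72 in the infertile F1 map and 4.94 against 6.26 in the rescue F1. It was 7.14 against 6.41 in Hum/Hum, and 8.35 against 7.76 in the CAST F1. The mean log2 density ratio was -0.06 ± 0.16 (SD, n = 8), lower in 6 of 8 maps, and did not pass the test (exact p = 0.305, adjusted p = 0.348). Chromosome ends were therefore called with hotspots at 0.790 (rescue F1) to 1.11 (Hum/Hum) times the density elsewhere. Without chromosome 18 the mean log2 density ratio was 0.01. It passed the test as a mean of per-chromosome ratios (-0.23, lower in 7 of 8 maps; exact adjusted p = 0.0312) and with a 3 Mb window (-0.26, lower in 7 of 8; exact adjusted p = 0.0312), and in the other direction with 10 Mb (0.20, higher in 8 of 8; exact adjusted p = 0.0156).

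The hottest hotspots were seldom distal. Of the hottest 10% of each map, between 1.15% (16 of 1397, rescue F1) and 2.34% (41 of 1750, CAST F1) lay in the distal regions, against 3.01% and 4.06% of all hotspots of those maps. For the hottest 1% the Hum/Hum (0 of 145), PWD/PWD (0 of 197), rescue F1 (0 of 140) and B6/B6 (0 of 159) maps had no distal member, with upper Wilson limits of 2.58%, 1.91%, 2.67% and 2.36%. The B6/Hum map had the most, 3 of 151. These shares carry counting error of hotspots only.

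The loss of heat was graded along the last megabases. Averaged over the 8 maps and relative to the whole map, heat per Mb was 0.467 in the last 1 Mb, 0.616 in the next, then 0.669, 1.02 and 0.885 up to 5 Mb from the end. In the last 1 Mb all 8 maps lay below 1, between 0.342 (rescue F1) and 0.574 (Hum/Hum). From 5 to 10 Mb from the end the 8 maps lay above 1 in each step, with means between 1.26 and 1.42, while the B6/B6 map was at 0.980 from 9 to 10 Mb. Density followed the same course, at 0.746 and 0.814 in the last 2 steps, 0.975, 1.19 and 1.09 further in, and 1.21 to 1.42 between 5 and 10 Mb. Just inside the 5 Mb limit, at 4 to 5 Mb, heat per Mb was 457 in the infertile F1 and 566 in Hum/Hum, and just outside it, at 5 to 6 Mb, 748.7 and 761.95. A 5 Mb window thus joins depleted and enriched steps: with 3 Mb the mean log2 ratio of heat per Mb was -0.82, and with 10 Mb it was 0.05.

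**Figure D2:**
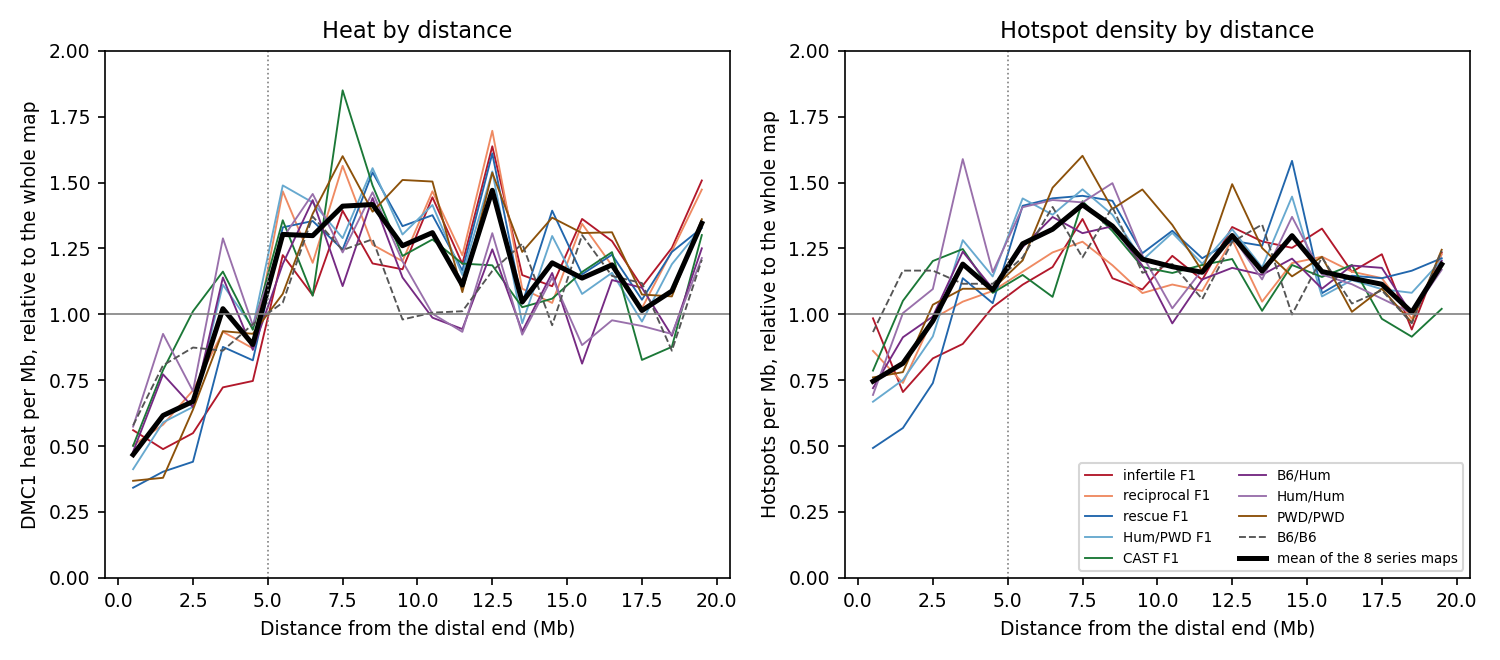
DMC1 heat per Mb (left) and hotspots per Mb (right) in 1 Mb steps from the distal end, each relative to the whole map (1 on the vertical axis), for the 9 maps (thin lines, B6/B6 dashed) and the mean of the 8 maps of the series' samples (thick line). The dotted line marks 5 Mb; mean heat is 0.467 in the last 1 Mb and 1.30 at 5 to 6 Mb.

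Against the centromere-proximal 5 Mb of the same chromosomes, which hold 5593 calls, the ends also had less heat. Distal heat per Mb was 375 in the infertile F1 against 571 proximally, 346 against 597 in the rescue F1, 374 against 631 in PWD/PWD and 527 against 608 in Hum/Hum. The mean log2 ratio was -0.48 ± 0.22 (SD, n = 8), lower in 8 of 8 maps (exact sign-flip permutation test, p = 0.00781; adjusted p = 0.0208). Density did not differ beyond its spread between both ends, with a mean log2 ratio of 0.02 ± 0.13 (exact p = 0.734, adjusted p = 0.734). It passed in opposite directions with other widths, at -0.30 with 3 Mb (lower in 8 of 8 maps; exact adjusted p = 0.0156) and 0.22 with 10 Mb (higher in 8 of 8; exact adjusted p = 0.0156).

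The 17 ends were far from alike. Chromosome 4 stood highest, with 42 to 75 hotspots in its last 5 Mb and a heat ratio to the rest of the chromosome between 0.956 (PWD/PWD) and 2.59 (Hum/Hum), median 1.40 over 9 maps. Its Hum/Hum heat was 1462 per Mb at the end against 565 elsewhere on the chromosome. Chromosome 9 followed with a median ratio of 1.28, from 0.915 in the rescue F1 to 1.596 in Hum/Hum. Chromosome 18 was lowest, with a median of 0.134 and 2 (rescue F1) to 24 (infertile F1) hotspots. The 4 maps with a Hum allele had 2, 7, 3 and 6 hotspots there (rescue F1, Hum/PWD F1, B6/Hum, Hum/Hum), while the other 5 had 11 to 24. Chromosomes 3, 12 and 1 were also low, with median ratios of 0.177, 0.352 and 0.411. The rescue F1 had a ratio of 0.0652 on chromosome 3 and the B6/B6 map 0.687. Heat was below the rest of the chromosome at 16 of 17 ends in the rescue F1 and PWD/PWD maps, and at 12 of 17 in the Hum/PWD F1, CAST F1 and Hum/Hum maps.

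**Figure D3:**
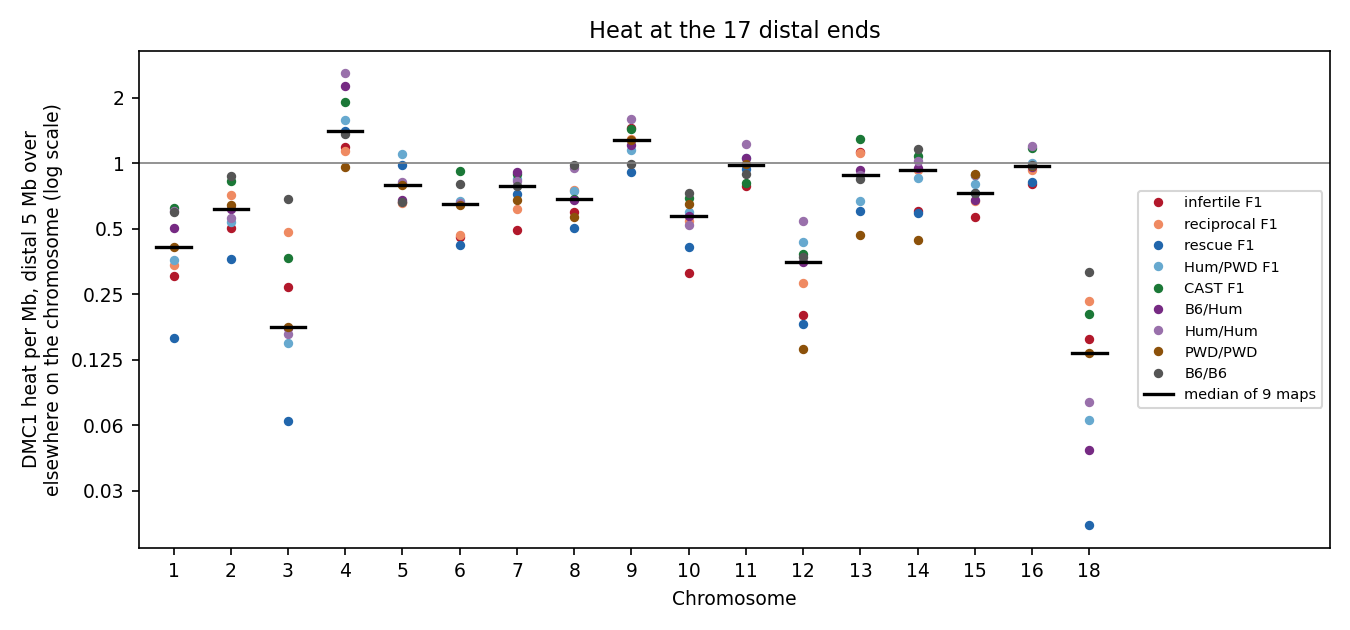
DMC1 heat per Mb in the distal 5 Mb over heat per Mb elsewhere on the same chromosome (log scale) for 17 autosomes, with 1 point per map and a bar at the median of 9 maps. Chromosomes 4 and 9 have medians above 1 (1.40 and 1.28), and chromosome 18 the lowest (0.134).

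Base composition went with these differences. The distal 85 Mb had 44.2% GC against 41.8% elsewhere, 0.987 CpG per 100 bases against 0.839, and 12.7 protein-coding gene starts per Mb against 8.28. The chromosome 18 end had 37.6% GC and the chromosome 4 end 50.0%. Across the 17 ends, which share libraries and a genome, Spearman's rho between GC and hotspot density ran from 0.542 (B6/Hum) to 0.858 (PWD/PWD). Chromosome 13 was an exception, with 38.8% GC and a median heat ratio of 0.888. Weighting the rest of the genome to the distal GC content widened the gap: the mean log2 ratio became -0.29 for density, lower in 8 of 8 maps (exact adjusted p = 0.0156), and -0.68 for heat per Mb. Distal hotspots themselves had a median GC of 45 to 48.3% in 300 bp, against 42 to 45.7% elsewhere. They lay in protein-coding genes in 53.6% (B6/Hum) to 60.5% (PWD/PWD) of calls, against 49.5 to 55.5% elsewhere, with B6/Hum the one map where the distal share was lower (53.6% against 55.3%). Of the sequence itself 47.96% lay in such genes distally and 40.8% elsewhere. Between 2.47% (Hum/Hum) and 8.77% (infertile F1) of distal calls were at most 1 kb from the start of a protein-coding transcript, against 2.36% and 9.99% elsewhere in those maps. Only the infertile F1 had a lower distal share. Distal Wilson intervals lay above the share elsewhere in the reciprocal F1 (4.30% against 2.62%), rescue F1 (4.29% against 2.55%), Hum/PWD F1 (3.76% against 2.33%) and B6/B6 (3.94% against 1.95%). Those of the other maps included it. A high share was not particular to the distal end. In the centromere-proximal 5 Mb the share was above the distal one in every map, from 3.73% (CAST F1) to 16.7% (infertile F1). The distal sequence also held 0.727% undetermined bases against 0.301% elsewhere, and counting bases that are not N gave a mean log2 heat ratio of -0.48.

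How the breaks of hybrids were shared between homologues was asked from the B6 share, the deposited fraction of DMC1 reads from the B6 chromosome. Symmetric means a share from 0.1 to 0.9. At chromosome ends fewer hotspots were symmetric in every hybrid. In the infertile F1, 307 of 633 distal hotspots were symmetric (48.5%, Wilson 95% interval 44.6 to 52.4%), against 57.6% elsewhere and 57.3% of all. In the reciprocal F1 168 of 482 were (34.9%, 30.7 to 39.2%), against 45.8% elsewhere and 45.5% of all. The rescue F1 had 191 of 347 (55.0%, 49.8 to 60.2%), against 60.2% elsewhere and 60.0% of all. In the Hum/PWD F1 337 of 593 were symmetric (56.8%, 52.8 to 60.8%), against 60.1% elsewhere and 60.0% of all. The CAST F1 had 441 of 643 (68.6%, 64.9 to 72.1%), against 71.4% elsewhere and 71.3% of all. The distal intervals of the infertile and reciprocal maps lay below the share elsewhere, and those of the other 3 maps included it. The mean difference was -6.25 ± 3.62 percentage points (SD, n = 5), lower in 5 of 5 maps. Among the 5 steps of 1 Mb within these regions, the symmetric share was highest in the last 1 Mb in 4 of 5 maps, at 63.9% in the infertile F1, 51.2% in the reciprocal F1, 64.1% in the rescue F1 and 74.6% in the CAST F1. These shares lay above those elsewhere in the same maps. Low shares were not confined to the distal 5 Mb. At 5 to 6 Mb from the end they were 43.6%, 34.6%, 56.1% and 59.0% in these maps and 54.4% in the Hum/PWD F1. With a 10 Mb window the mean difference was -6.18 percentage points. With 5 maps the exact sign-flip permutation test cannot go below p = 0.0625, which it gave (adjusted p = 0.1).

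**Figure D4:**
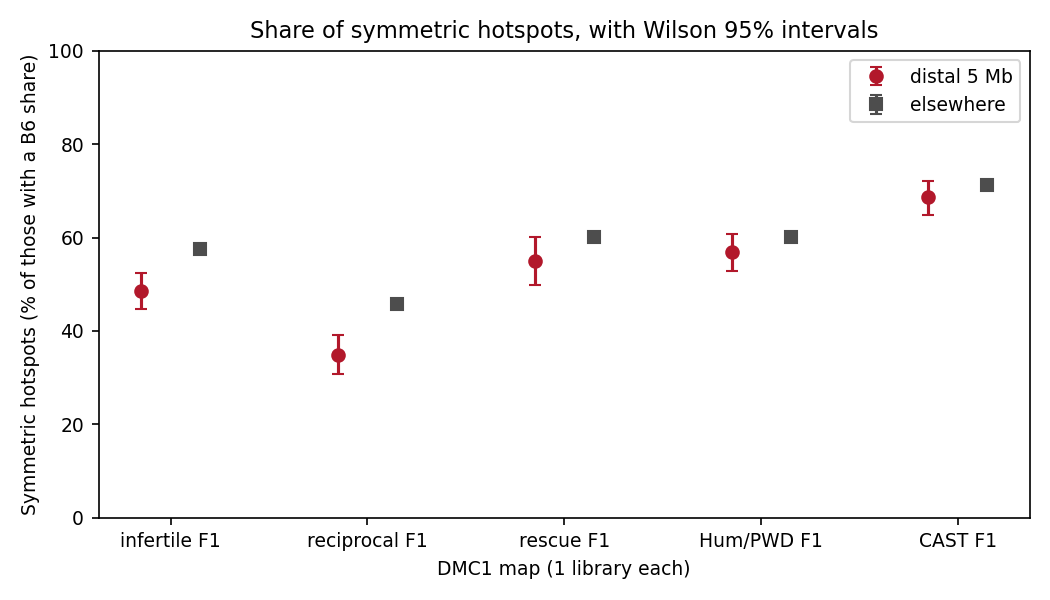
Percentage of hotspots with a B6 share of DMC1 reads from 0.1 to 0.9 in the distal 5 Mb (circles) and elsewhere (squares) in the 5 hybrid maps, with Wilson 95% intervals. The distal share is lower in each map, with a difference between -2.78 percentage points in the CAST F1 and -10.98 in the reciprocal F1.

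The excess of one-sided hotspots at chromosome ends lay mainly on the B6 chromosome. Shares above 0.9 made up 29.4% of distal hotspots in the infertile F1 against 21.6% elsewhere, and 37.1% against 27.7% in the reciprocal F1. They made up 34.6% against 26.8% in the rescue F1, 31.7% against 25.7% in the Hum/PWD F1, and 15.7% against 13.1% in the CAST F1. The distal intervals (26.0 to 33.0%, 32.9 to 41.5%, 29.8 to 39.7%, 28.1 to 35.6% and 13.1 to 18.7%) began above the share elsewhere in 5 of 5 maps, in the CAST F1 only just. Shares below 0.1, breaks on the other parent's chromosome, made up 22.1% against 20.8% in the infertile F1, 28.0% against 26.5% in the reciprocal F1 and 15.7% against 15.6% in the CAST F1. In both crosses with a Hum allele they were lower, at 10.4% against 12.995% in the rescue F1 and 11.5% against 14.2% in the Hum/PWD F1. In the infertile F1 one-sided distal hotspots had a median heat of 42.9 and symmetric ones of 13, against 61.7 and 19 outside the ends.

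The allele that set a hotspot was deposited by the authors for 3 maps. In the infertile F1, 311 distal hotspots were assigned to the PWD allele (42.6%) and 236 to B6 (32.3%), against 45.2% and 34.9% elsewhere. PWD-type distal hotspots had a median B6 share of 0.850 against 0.662 elsewhere, and B6-type ones 0.202 against 0.348. In the reciprocal F1 these medians were 0.938 against 0.758 for PWD and 0.0870 against 0.241 for B6. For both alleles the breaks at the ends thus lay more on the chromosome of the other strain than they did elsewhere. In the rescue F1 the 92 PWD-type distal hotspots had a median B6 share of 0.941 against 0.697, and 31.2% of those with a share were symmetric (21.9 to 42.2%) against 55.9%. The 265 Hum-type hotspots had 0.565 against 0.5, and 69.5% of those with a share were symmetric (63.2 to 75.2%), against 68.0%. The difference between both types of hotspot was not tested. Hotspots with no allele determined made up 24.2% of distal calls against 19.02% in the infertile F1, 18.8% against 10.5% in the reciprocal F1, and 13.8% against 11.5% in the rescue F1.

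H3K4me3 at the hotspots was lower at the ends, as heat was, in some tables and not in others. ChIP fragments per input fragment in distal bins, without bins marked PRDM9-independent or with input above 10 times the median, were 1.83 and 1.90 in the infertile replicates against 1.68 and 1.78 elsewhere. They were 1.85 and 2.08 in the rescue replicates against 1.52 and 1.73, and 1.20 and 1.14 in the reciprocal replicates against 1.27 and 1.21. Distal bins were thus higher in the infertile and rescue crosses and lower in the reciprocal cross, in both replicates of each. The mean log2 ratio over 6 replicate libraries was 0.10 ± 0.16 (SD, n = 6), higher in 4 of 6, and did not pass the test (exact sign-flip permutation test, p = 0.188; adjusted p = 0.25). Both replicates of a cross share 1 input and 1 set of bins. Without the input limit the mean was 0.43, and it was -0.01 over 3 tables when median deposited enrichment was used. That median was lower distally in the reciprocal (0.284 against 0.389), B6/B6 (0.281 against 0.392) and Hum/Hum (0.765 against 0.802) tables. It was higher in the infertile (0.919 against 0.829) and rescue (1.05 against 0.862) tables. Median input fragments per distal bin were 29 against 25 elsewhere for the infertile F1, 32 against 26 for the rescue F1 and 40 against 30 for the reciprocal F1, so input coverage was not lower at the ends. The pseudoreplicates of Hum/Hum gave distal ratios to elsewhere of 0.997 and 1.004, and those of B6/B6 of 0.918 and 0.927. At sites shared by the infertile, reciprocal and rescue tables, the log2 ratios of the infertile replicates were only 0.029 and 0.0018.

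Within the distal 5 Mb, summed H3K4me3 ChIP per input was higher in the last 1 Mb than at 4 to 5 Mb, while heat was lower there. In the last 1 Mb ChIP per input, relative to all bins kept after the same filters, was 1.17 and 1.15 in the infertile replicates, 1.68 and 1.59 in the rescue replicates and 1.17 and 1.21 in the reciprocal replicates. At 4 to 5 Mb from the end the values were 0.763 and 0.785, 0.937 and 0.941, and 0.759 and 0.761. The rescue values of the last 1 Mb came from 40 bins with a median enrichment of 0.777, against 0.862 elsewhere. Pseudoreplicates in the last 1 Mb gave 1.05 and 1.08 in Hum/Hum and 1.41 and 1.45 in B6/B6. Values above 1 also occurred where heat was not low. At 18 to 19 Mb the rescue replicates had 1.21 and 1.18, with heat at 1.24 of its map. With a 3 Mb window the mean log2 ratio was 0.29, higher in 6 of 6 libraries (exact adjusted p = 0.0625). Deposited p-values below 0.05 for an enrichment above 0 were found for 502 of 600 distal infertile bins (83.7%), against 81.5% of all tested bins. For the rescue F1 338 of 365 distal bins had one (92.6%, Wilson interval 89.5 to 94.9%), against 87.0% of all. The reciprocal table had 223 of 509 (43.8%) against 46.4%, Hum/Hum 487 of 545 (89.4%) against 88.6%, and B6/B6 351 of 597 (58.8%, 54.8 to 62.7%) against 64.7%. Infertile, reciprocal and Hum/Hum shares were near the background of their tables.

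Heat per unit of H3K4me3, summed over the distal 5 Mb, was lower at chromosome ends. Summed heat over summed deposited enrichment, the authors' ratio to local background coverage, was taken over all bins, PRDM9-independent and high-input ones included. It was 12.4 in distal bins of the infertile F1 against 16.5 elsewhere. It was 58.3 against 92.8 in the reciprocal F1, 36.6 against 62.8 in the rescue F1, 58.1 against 73.0 in Hum/Hum and 68.7 against 95.6 in B6/B6. The mean log2 ratio was -0.53 ± 0.19 (SD, n = 5), lower in 5 of 5 tables, and the exact sign-flip permutation test gave p = 0.0625, the smallest that 5 tables allow (adjusted p = 0.1). Values in 1 Mb steps leave out PRDM9-independent and high-input bins and are relative to all bins kept. On that basis the last 1 Mb was at 0.453 in the infertile F1, 0.365 in the reciprocal F1, 0.605 in the rescue F1, 0.680 in Hum/Hum and 0.369 in B6/B6. At 3 to 4 and 4 to 5 Mb the values were above 1 in the reciprocal F1 (1.16 and 1.19) and B6/B6 (1.31 and 1.48). They were below 1 there in the infertile F1 (0.750 and 0.927), the rescue F1 (0.670 and 0.884) and Hum/Hum (0.842 and 0.950). Over the distal 5 Mb, with medians in place of sums and all bins, the direction held in 3 of 5 tables.

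**Figure D5:**
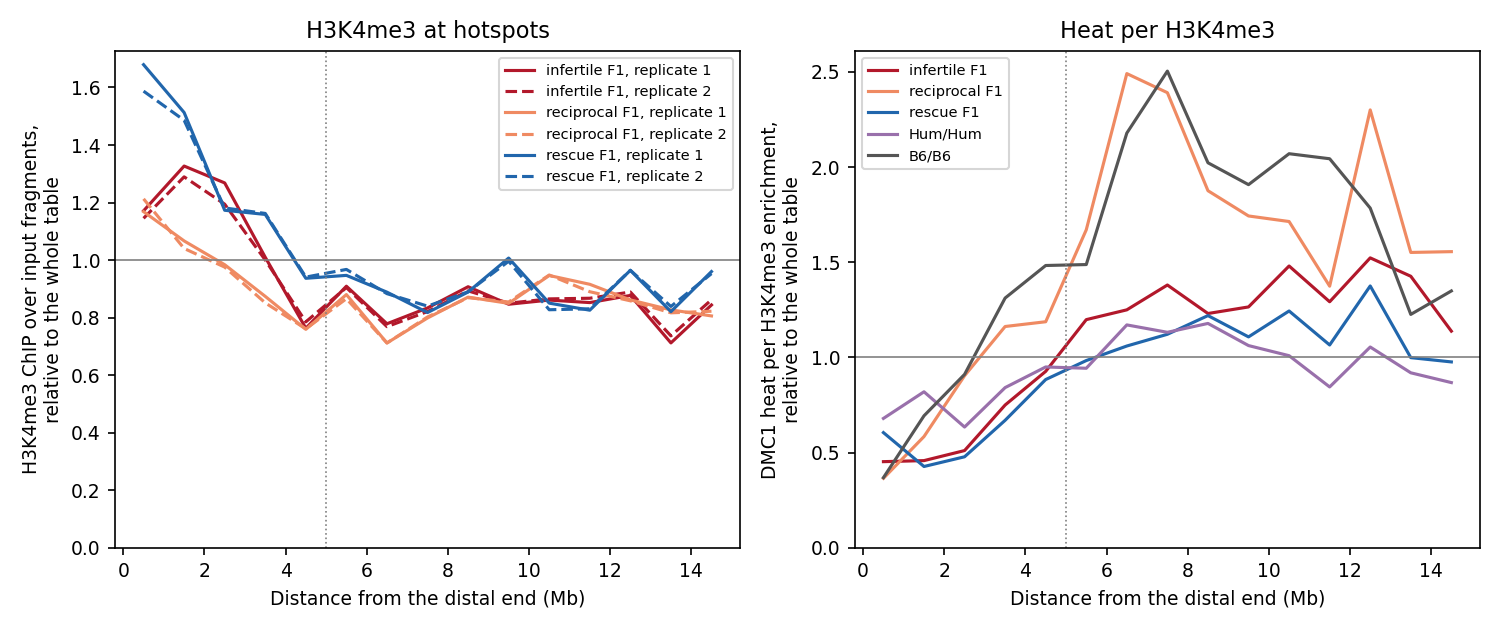
H3K4me3 ChIP over input fragments at hotspots in 1 Mb steps from the distal end for both replicates (solid and dashed) of the infertile, reciprocal and rescue F1 (left), and summed DMC1 heat per summed H3K4me3 enrichment in 5 tables (right). PRDM9-independent and high-input bins are left out, and each value is relative to all bins kept of its table. In the last 1 Mb the mark is above 1 in all 6 replicates, up to 1.68 in the rescue F1, and heat per mark is below 1 in all 5 tables, between 0.365 and 0.680.

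PRDM9-independent H3K4me3, which marks promoters and other active elements, overlapped more distal bins. The shares were 17.5% against 15.5% in the infertile table, 12.0% against 6.91% in the reciprocal, 12.9% against 8.31% in the rescue, 9.88% against 7.83% in Hum/Hum and 9.39% against 5.55% in B6/B6. The distal Wilson intervals of the infertile table (14.9 to 20.5%) and of Hum/Hum (7.76 to 12.5%) included the share elsewhere. Those of the reciprocal, rescue and B6/B6 tables lay above it. Their part in the heat per H3K4me3 was checked by leaving out such bins and those of high input. This gave 27.8 against 47.1 in the infertile F1 and 86.5 against 111.2 in the reciprocal F1. It gave 47.1 against 76.5 in the rescue F1, 62.5 against 79.5 in Hum/Hum and 89.5 against 109.5 in B6/B6. With PRDM9-independent bins left out and high-input bins kept, the mean log2 ratio was -0.50, lower in 5 of 5 tables. By H3K4me3 reads, with at least 10 informative reads a bin, 53.8% of 509 distal infertile bins were symmetric against 62.5% elsewhere and 62.2% of all. Of 314 distal reciprocal bins 42.0% were, against 49.7% elsewhere and 49.4% of all. For the rescue F1 it was 63.6% of 330 distal bins, against 66.0% elsewhere and 65.9% of all. The distal Wilson intervals of the infertile F1 (49.5 to 58.1%) and the reciprocal F1 (36.7 to 47.6%) lay below both shares, and that of the rescue F1 (58.3 to 68.6%) included them.

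Sites used by more than 1 map allow the same position to be compared. Of the 2723 distal sites 54.4% were called in 1 map, against 50.0% of 65769 sites elsewhere. Hotspots of the homozygous males were found less often in most other maps at the ends. Of the 709 distal PWD/PWD calls 38.8% had a partner in the infertile F1 (Wilson interval 35.3 to 42.4%), against 47.1% elsewhere, and 12.7% (10.4 to 15.3%) against 19.5% in the rescue F1. For B6/B6 hotspots 32.0% (28.5 to 35.6%) against 41.4% were found in the infertile F1, and for Hum/Hum hotspots 41.5% (37.7 to 45.5%) against 52.9% in the rescue F1. B6/Hum males held 68.7% (64.9 to 72.3%) of distal Hum/Hum hotspots against 73.9%, and 20.5% (17.6 to 23.7%) of distal B6/B6 hotspots against 27.7%. In the CAST F1 10.9% (8.78 to 13.4%) of distal PWD/PWD hotspots were found against 11.4%. Weaker hotspots are more easily missed, and distal ones were weaker; their part in these shares was not tested.

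Both crosses with a PWD mother had less distal heat than their opposite cross at the same sites. At 544 distal hotspots shared by the infertile and reciprocal F1 the median log2 ratio of heat, infertile over reciprocal, was -0.24 (quartiles -0.55 and 0.10), against 0.06 at 15284 shared hotspots elsewhere. At 414 distal hotspots shared by the rescue and Hum/PWD F1 it was -0.17 (quartiles -0.48 and 0.26), rescue over Hum/PWD, against 0.12 at 12977 elsewhere. The gap between ends and elsewhere was -0.30 and -0.29. Each is a comparison of 2 libraries, with no replicate check, and the pairs differ in library as well as in cross direction. For the Hum/PWD F1 over Hum/Hum the medians were -1.10 and -1.12, and for B6/Hum over Hum/Hum -0.44 and -0.50, which are gaps of 0.02 and 0.06 between ends and elsewhere. The rescue F1 over Hum/Hum had medians of -0.83 and -0.71, a gap of -0.12. Against the homozygous mouse strains the gaps ran the other way or were near 0. The infertile F1 over PWD/PWD had -1.03 at the ends and -1.54 elsewhere, a gap of 0.51, and the reciprocal F1 over PWD/PWD had -0.93 and -1.60, a gap of 0.67. Over B6/B6 the gap was 0.37 for the reciprocal F1 and 0.0019 for the infertile F1.

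Single distal sites reached high heat in several maps. The highest distal value of any map was at an intron of Asic1, a proton-gated sodium channel gene (chr15:99680838), with 437.0 in the infertile F1, 670.2 in the reciprocal F1, 400.8 in the rescue F1 and 403.8 in the Hum/PWD F1. Its breaks were on the B6 chromosome in all 4 maps, with B6 shares of 0.988 to 1. Its deposited H3K4me3 enrichment was 3.71 for the infertile F1, 2.42 for the rescue F1 and 1.36 for the reciprocal F1. An intron of Nadk, the NAD kinase gene (chr4:155583874), lay 746989 bp from the end, had heat of 399.9, 445.5, 464.1 and 467.2 in the same 4 maps, and B6 shares of 0.984 to 0.999. Neither site was called in the PWD/PWD map, the B6/B6 map or any other. An intron of Kcnj6, a potassium channel gene (chr16:94945032), was called in the same 4 maps, with heats of 287.2 to 429.3 and B6 shares of 0.995 to 1.

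Among named sites cut on the chromosome that is not B6, the highest deposited heats were in an intron of Baiap2 (chr11:120004141) and 93794 bp from Isl1 (chr13:116403483). The Baiap2 site had heat of 291.9 in the infertile F1, 431.3 in the reciprocal F1 and 282.6 in the CAST F1, with B6 shares of 0.007, 0.007 and 0.016. The chromosome 13 site had 235.0, 446.4 and 135.3, with shares of 0.005, 0.009 and 0.031. Both were absent from the B6/B6 map. Their enrichments were 6.51 and 3.22 at Baiap2, and 5.48 and 2.81 at the chromosome 13 site, in the infertile and reciprocal tables. Heat is relative within a map, and by rank an intron of Erg (chr16:95499125) stood higher. It ranked 193 in the CAST F1, the only map that called it, with heat of 400.1 and a B6 share of 0.016. The best ranks were 405 at Baiap2 and 367 at the chromosome 13 site, both in the reciprocal F1.

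Several other hot sites of the maps with a Hum allele were symmetric. A site 898 bp from Mettl7a1 (chr15:100303242) had heat of 424.4 in the rescue F1, 395.7 in the Hum/PWD F1, 623.6 in B6/Hum and 377.5 in Hum/Hum, with B6 shares of 0.471 and 0.467 in both hybrids. It held 175 and 178 H3K4me3 fragments over 16 input fragments in the rescue replicates, an enrichment of 10.3, in a bin the authors marked as overlapping PRDM9-independent H3K4me3. A site 1685 bp from Cox8b (chr7:140902131) had heats of 341.9, 343.8, 534.0 and 437.2 in the same 4 maps, with B6 shares of 0.641 and 0.567. Less balanced shares, in the same order, were found at Kcnj6 (chr16:94981678, 0.853 and 0.829) and Ski (chr4:155193434, 0.240 and 0.261). A site 173019 bp from Rap2a (chr14:120680213) was one-sided, with shares of 0.979 and 0.992. Its heats in the same 4 maps were 249.3, 297.0, 426.4 and 369.8. The hottest symmetric site of the infertile F1 was 4257 bp from Methig1 (chr15:100348892), with heat of 210.4 and a B6 share of 0.522, and it had the highest distal heat in the PWD/PWD map (307.7). Its window is the third printed above. In the reciprocal F1 it was an intron of Tnrc6c (chr11:117684662), with heat of 258.7 and a share of 0.231.

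Among distal bins not marked PRDM9-independent, the highest enrichment of each table was not at its hottest site. The highest distal enrichment of the infertile table, 18.5, lay 348981 bp from Socs6 (chr18:88316243), where 150 and 148 fragments stood over 8 input fragments and heat was 71.9. For the reciprocal table the highest enrichment, 9.09, was in an intron of the non-coding gene Gm31793 (chr10:130556933), with heat of 34.6, 169 bp from the outermost hotspot of that chromosome. In the B6/B6 table it was 11.6 in an intron of Fgf14 (chr14:124223631), a fibroblast growth factor gene, with heat of 90.0. The Hum/Hum maximum, 7.88, was in an intron of the complement regulator Cd46 (chr1:195084179), with heat of 83.8. These maxima are among bins not marked PRDM9-independent. They rest on few input fragments, 10 at Gm31793, 6 at Fgf14 and 13 at Cd46. In the reciprocal table the Socs6 bin had 27 input fragments and an enrichment of 3.02. In the rescue table the maximum was at a site 11093 bp from Th (chr7:142881659), which encodes tyrosine hydroxylase, with 8.55 and heat of 91.2. The Mettl7a1 bin of that table, marked PRDM9-independent, was higher in both, with an enrichment of 10.3 and heat of 424.4.

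At the 4 ends with the lowest heat the hottest site by rank was in the B6/B6 map on chromosomes 1, 3 and 18. On chromosome 3 the hottest site by rank lay 47215 bp from Negr1 (chr3:156514579), with heat of 242.0 in B6/B6, 208.9 in the reciprocal F1 and 113.8 in the infertile F1, and B6 shares of 0.992 to 1 in those F1 maps. On chromosome 18 it lay 699369 bp from Fbxo15 (chr18:85680842), with 210.2 in B6/B6 and 17.2 to 27.2 in the 3 other maps that called it. Chromosome 12 had an intron of Ptprn2 (chr12:116781402), called in 5 maps with 287.1 in the Hum/PWD F1. On chromosome 1 an intron of Rps6kc1 (chr1:190896888) had 273.4 in B6/B6 and 81.4 in B6/Hum.

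Of the 2723 distal sites 2 were called in all 9 maps. One, 36478 bp from the gene 2010315B03Rik (chr9:124255326), had heats of 50.6 (CAST F1) to 110.5 (B6/B6) and enrichments of 0 to 0.32 in the 5 tables. The other, in an intron of Tmem267 (chr13:119488831), had input above 10 times the median and is listed apart. Of the distal calls 25 lay within 1 kb of such high-input bins.

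Genes were extended by 2000 bp to ask which meiotic genes hold distal hotspots. Of 51 genes listed for meiotic recombination, 36 were placed on the 17 autosomes and 3 of those in the distal regions. Sycp2, a component of the synaptonemal complex, held calls in 4 maps with a highest heat of 165.3. Syce1, of its central element, held calls in 5 maps with up to 111.3. Brca2, which loads recombinases on broken DNA, held 1 call, in the PWD/PWD map, with heat of 9.9. The list gives positions only and carries no measure of the genes' expression.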

How the data were processed

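DMC1 ChIP of single-stranded DNA and H3K4me3 ChIP were sequenced from whole mouse testis. The submitters' processing notes name BWA and mm10 for both assays, plus SAMtools and bedtools for H3K4me3. Tool versions, the hotspot caller and how heat was defined are not given there. The DMC1 heat deposited by the authors is a relative signal per hotspot. The B6 share deposited by the authors is a fraction of reads, with the number of reads behind a DMC1 share unknown. The H3K4me3 tables deposited by the authors hold counts of fragments in 1 kb bins at DMC1 hotspots of the same genotype. Per the file headers they also hold a maximum-likelihood enrichment, a ratio to local background coverage, and a p-value from a likelihood ratio test. Informative reads per bin are an estimated count after background subtraction, per the file headers. The B6/B6 table used the input of Hum/Hum, per the labels' protocols, which also give 40 to 50 M usable read pairs per F1 library and 70 to 80 M for B6/B6 and Hum/Hum. Lists on mm9 were not used.

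The members and the gene list were chosen with earlier results of these data known. Ratios of distal values to elsewhere on the same chromosomes were computed within a map, since heat is relative. They were tested over maps, replicate libraries or tables with exact two-sided sign-flip permutation tests, adjusted by Benjamini-Hochberg over 8 tests at a threshold of 0.05. With 1 library per DMC1 genotype, p-values measure the spread between libraries of different genotypes. Wilson 95% intervals cover counting of hotspots or bins only. Sites matched within 1 kb. Bins with input above 10 times the median of a table were left out of ChIP and input sums and of values in 1 Mb steps. They were kept in the tested heat per H3K4me3. Named sites were the 3 hottest distal hotspots of each map, the hottest site by rank of each end, sites called in all 9 maps, the hottest symmetric and one-sided distal hotspots of each hybrid, and the highest distal enrichment of each table outside PRDM9-independent bins. Sequence came from RefSeq's GRCm38.p6 and genes from the GENCODE annotation given for mm10. Motif shares used 300 bp windows of this reference sequence for every map, PWD/PWD included. Windows of all sequence were tiled every 300 bp distally and every 3000 bp elsewhere. The tests were tried on simulated data first. Tables were made in pandas 2.3.3 under Python 3.11.15, statistics in SciPy 1.17.1 with NumPy 2.4.6, and figures in Matplotlib 3.10.9.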

Additional observations from a re-analysis of the deposited data

Results flagged for a closer look

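The distal ratio of H3K4me3 differed between crosses in direction. Both infertile replicates were above 0 on the log2 scale (0.13 and 0.09) and both reciprocal replicates below it (-0.08 and -0.09), a difference in means of 0.20 (0.195). Both rescue replicates were above 0 (0.28 and 0.27), and the difference from the reciprocal cross was 0.36 (0.362). With 2 replicates against 2 the exact two-sided permutation test gave p = 0.333, the smallest possible, for each. At sites shared by all 3 tables the differences were 0.12 and 0.45. The infertile replicates were at 0.029 and 0.0018 there, the rescue replicates at 0.38 and 0.32, and the reciprocal replicates at -0.094 and -0.11.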

How the results depend on the processing

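Values are mean log2 ratios of distal to elsewhere, adjusted p-values are from the exact sign-flip test, and the cause of each change was not tested. The width of the distal region reversed several values. With 10 Mb density was 0.199 (exact test, adjusted p = 0.0156) and heat per Mb 0.0502, H3K4me3 was -0.0923 and heat per H3K4me3 0.0043, all reversed, and median heat was -0.131 (exact test, adjusted p = 0.0625). With 3 Mb density was -0.263 (exact test, adjusted p = 0.0312). With 3 Mb heat per Mb was -0.820, heat per Mb against proximal -0.883, heat per H3K4me3 -0.929 and the symmetric share -4.16 percentage points. Density was -0.230 as a mean of per-chromosome ratios (exact test, adjusted p = 0.0312), where heat per Mb was -0.757, and -0.285 when weighted to the distal GC content (exact test, adjusted p = 0.0156), which was chosen after seeing the data; it was 0.0075, reversed, without chromosome 18. H3K4me3 was -0.00811 by median deposited enrichment, reversed, and 0.432 with no input limit. Within GC classes, also chosen after seeing the data, it was 0.0878 and higher in 6 of 6 libraries. The symmetric share was -10.7 percentage points over the hotter 0.5 of hotspots, and heat per H3K4me3 was -0.269 with medians. Distal against proximal density was 0.223 with 10 Mb and -0.296, reversed, with 3 Mb (exact test, adjusted p = 0.0156 for each), and heat per Mb against proximal was -0.0396 with 10 Mb. Leaving out 1 library at a time gave -0.0936 to -0.0228 for density, -0.526 to -0.434 for heat per Mb, -0.330 to -0.264 for median heat, -7.12 to -5.07 percentage points for the symmetric share, 0.0637 to 0.138 for H3K4me3 and -0.585 to -0.473 for heat per H3K4me3. Against the proximal end it gave -0.523 to -0.440 for heat and -0.0211 (without Hum/Hum, reversed) to 0.0430 (without the rescue F1) for density. The other alternatives run kept direction and side of the threshold. No paired analysis was possible because each DMC1 group is 1 library and the labels give the groups no shared replicate that pairs them. The number of informative reads behind a DMC1 B6 share is unknown, so shares of weak hotspots have an unknown error. Mappability near chromosome ends was not tested.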
